A study of Macaca mulatta with 11 samples.

Results

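Neurotrophin receptors, their ligands and the growth cone protein GAP43 were followed in marrow stromal cells of rhesus monkeys (Macaca mulatta) of different ages. Probe sets were taken by gene symbol for 7 genes, NTRK2, NTRK3, NGFR, BDNF, NTF3, SORT1 and GAP43, which gave 16 of the 22215 probe sets on the array. NTRK3 had 7 of them, NTRK2 had 4, GAP43 had 3, and NGFR and BDNF had 1 each. NTF3 and SORT1 were matched by 0 probe sets in the annotation used and were not analysed here. The genes were chosen by results of these arrays, among them the difference of an NTRK2 probe set between fetal and adult arrays, so that values of that comparison are given as a description with no test.

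Mesenchymal stem cells here are the plastic-adherent stroma grown out of bone marrow, and each of 11 such cultures was read on 1 expression array. The fetal group held 4 arrays, with arrays 1 and 2 from gestation day 120 and arrays 3 and 4, although titled fetal, from newborns. The infant group held 4 arrays from donors aged 6, 6, 3 and 5 months for arrays 1 to 4, and the adult group held 3 arrays from donors aged 7, 7 and 8 years. All cultures were grown in the same medium with fetal bovine serum and collected at the second passage before confluence. Long bones were flushed to obtain fetal and newborn marrow, whereas infant and adult marrow was aspirated, so that collection and the fetal group's age cannot be told apart. The labels do not say that arrays of 1 age came from separate animals, and p-values measure the spread between these cultures, which may be technical.

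Neurotrophins are secreted growth factors, first known for keeping neurons alive. BDNF binds the receptor tyrosine kinase TrkB, the product of NTRK2, and neurotrophin-3, the product of NTF3, prefers TrkC, the product of NTRK3. All neurotrophins also bind the p75 receptor, the product of NGFR, which works with sortilin (SORT1) as a receptor for uncleaved proneurotrophins. In marrow, p75 is known as CD271, a surface protein used to isolate stromal cells. GAP43 is a membrane-attached protein of growing axon tips and a substrate of protein kinase C.

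The values were intensities of human probe sets read with monkey RNA, so a level also reflects how well the probes match, and the order of brightness among probe sets describes the readings, not amounts of transcript. Medians of the arrays lay between 164.9 and 169.7 in intensity, and no detection call was used. Most of the 16 probe sets were dim. Their log2 intensities ran from 6.36 to 9.72, against a median of 7.38 and a lowest value of 6.23 over all probe sets, and 9 of the 16 had a mean below that median. In 7 of the 16, a single value was shared exactly by 3 or more arrays, as in 27.5% of all probe sets. The surface and niche markers of marrow stroma were read with 12 of 13 genes, and none passed the test in any comparison. The growth factor receptor PDGFRA was, however, 0.95 higher in fetal than in adult arrays (SE 0.19, limma adjusted p = 0.0681). Of these 12 genes 4 were higher and 8 lower in fetal than in adult means, with a median difference of -0.09. At an unadjusted p under 0.05 were 3 of them, against 9.92% of all genes. Neuronal markers were read with 12 of 14 genes and markers of Schwann cells and other glia with 8 of 12. The summed intensity of the neuronal list lay between 3888 and 4376 in fetal, 3448 and 4240 in infant and 3268 and 3765 in adult arrays. Of its 12 genes, however, 5 were higher and 7 lower in fetal than in adult means, with a median difference of -0.02. That of the glial list lay between 1147 and 1252 on all arrays, and 6 of its 8 genes and 6 of the 12 neuronal genes had a mean below the median of all values. UCHL1 of the neuronal list, a ubiquitin hydrolase, at 10.87 in fetal and 10.46 in adult arrays, did not pass between these groups (limma adjusted p = 0.372).

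NTRK2, the TrkB receptor, had 1 probe set in which the 3 age groups did not overlap at all and 3 in which they did in part. Probe set 221796_at read 6.72 and 6.59 at gestation day 120 and 6.59 and 6.64 in newborns. In infants it read 6.85, 6.90, 6.87 and 6.87, and in adults 7.54, 7.58 and 7.16. Every fetal array lay below every infant array and every infant array below every adult array, whereas gestation day 120 and newborn arrays overlapped. In log2 intensity fetal arrays averaged 6.63 ± 0.06 (SD, n = 4), infant arrays 6.87 ± 0.02 (SD, n = 4) and adult arrays 7.43 ± 0.23 (SD, n = 3). The fetal-to-adult difference was -0.79 on the log2 scale (SE 0.11), which makes the adult level 1.73-fold the fetal one. In bulk samples fewer cells with the transcript and less transcript per cell cannot be told apart. The level of this probe set was low throughout, with its mean at percentile 14.8 of all probe sets. Without a detection call such low levels cannot be told from background.

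**Figure D1:**
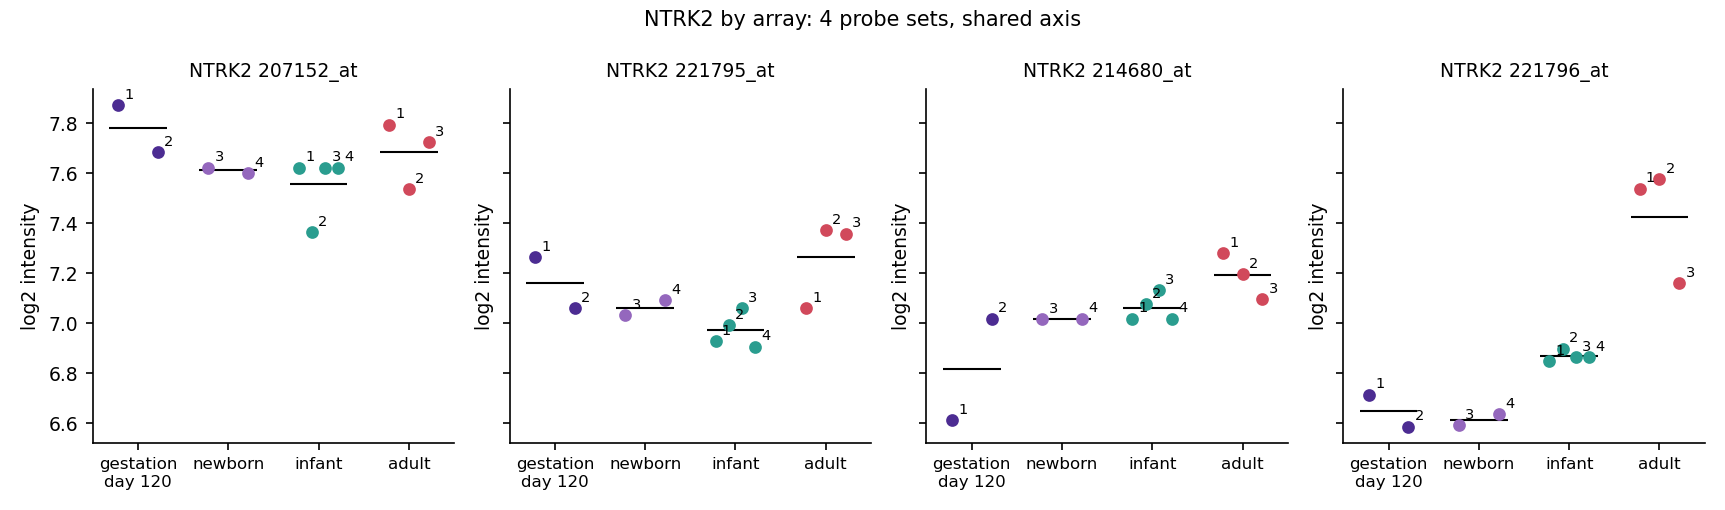
Log2 intensity of the 4 NTRK2 probe sets (panels, shared vertical axis) by stage, with 1 point per array numbered as in its title and a black line at the stage mean. In 221796_at the adult arrays lie between 7.16 and 7.58 and every other array at or below 6.90, whereas in 207152_at the stages overlap.

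Infant and adult arrays did not overlap for 221796_at, and their difference did not pass over all probe sets. This comparison uses the same adult arrays as the one that chose the members, so it is not independent of that choice. The infant level differed from the adult level by -0.56 (SE 0.11, limma adjusted p = 0.161). Adjusted p lay between 0.00590 and 0.594 over the alternatives. It passed without adult array 3 alone, with a difference of -0.69 (limma adjusted p = 0.00590). Fetal and infant arrays also did not overlap, with a difference of -0.24 (SE 0.10, limma adjusted p = 0.688).

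The other 3 NTRK2 probe sets moved less. Probe set 207152_at, the brightest of the gene, averaged 7.70 ± 0.12 (SD, n = 4) for fetal arrays, 7.56 ± 0.13 (SD, n = 4) for infants and 7.69 ± 0.13 (SD, n = 3) for adults. It held the same value of 7.62 on 4 arrays, and its fetal and adult arrays overlapped, with a difference of 0.01 (SE 0.11). Probe set 214680_at read 6.61, 7.02, 7.02 and 7.02 in fetal, 7.02, 7.08, 7.13 and 7.02 in infant and 7.28, 7.20 and 7.10 in adult arrays. Its fetal and adult arrays did not overlap, with a difference of -0.28 (SE 0.11), and fetal array 1 stood below all others. Without that array the difference was -0.17. Probe set 221795_at had its highest values in adult arrays 2 and 3, at 7.37 and 7.36, but adult array 1 read 7.06, inside the fetal range of 7.03 to 7.26. Its infant arrays differed from adults by -0.29 (SE 0.11, limma adjusted p = 0.692). All 4 probe sets were lower in infant than in adult means, and none of these differences passed.

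Some markers of other cell types were, like 221796_at, highest in adult arrays, whereas other genes of the same lists were not. Of 10 genes of B and plasma cells 9 were measured, and their summed intensity was 9154 and 11879 in adult arrays 1 and 2, 2074 in adult array 3, and between 1570 and 1824 in infant and fetal arrays. The immunoglobulin light chain gene IGLC1 read 12.82 and 13.23 in adult arrays 1 and 2, 9.10 in adult array 3 and at most 8.30 elsewhere. IGKC, the kappa light chain gene, read 9.36, 9.90 and 7.60 in adult arrays 1 to 3 and at most 7.74 elsewhere. IGHM, an immunoglobulin heavy chain gene, was the gene of the list that passed between fetal and adult arrays, in 1 probe set with a difference of -1.60 (SE 0.27, limma adjusted p = 0.0389), whereas its brighter probe set differed by 0.07. MZB1, a plasma cell chaperone, had means of 7.89 in fetal and 7.92 in adult arrays, and the B cell receptor subunit CD79A of 8.09 and 7.93. Of the 9 genes 3 were higher and 6 lower in fetal than in adult means, with a median difference of -0.04. The pericyte and smooth muscle list, with 9 of 10 genes measured, had summed intensities of 12569 to 27096 in fetal, 22969 to 25058 in infant and 28189 to 31126 in adult arrays. The highest fetal sum was that of fetal array 4, where 221796_at read 6.64. In that list 1 gene was higher and 8 lower in fetal than in adult means, with a median difference of -0.60. The calponin gene CNN1 of that list was lower in fetal arrays by a log2 difference of -0.84 (SE 0.11, limma adjusted p = 0.00815) and the smooth muscle actin gene ACTG2 by -1.32 (SE 0.19, limma adjusted p = 0.0160). ACTG2 also passed between infants and adults, where 221796_at did not, with a difference of -1.57 (SE 0.19, limma adjusted p = 0.0106). Without adult arrays 1 and 2 the fetal-to-adult difference of 221796_at was -0.53 (SE 0.13) against the single adult array left, which was assumed to vary like the other groups, and the infant-to-adult difference was -0.29 (limma adjusted p = 0.460). Adult array 3, at 7.16, read above every infant and fetal array. It also lay above all of them in IGLC1 and in the sum of the B and plasma cell list, but not in IGKC. Endothelial markers, with 9 of 9 genes measured, summed to 1482 to 1547 in fetal, 1477 to 1725 in infant and 1556 to 1768 in adult arrays, and macrophage and leukocyte markers, with 9 of 10, to 1603 to 1769, 1419 to 1712 and 1627 to 1925, and no gene of either list passed. The part of these cell types in the NTRK2 values was not tested.

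**Figure D2:**
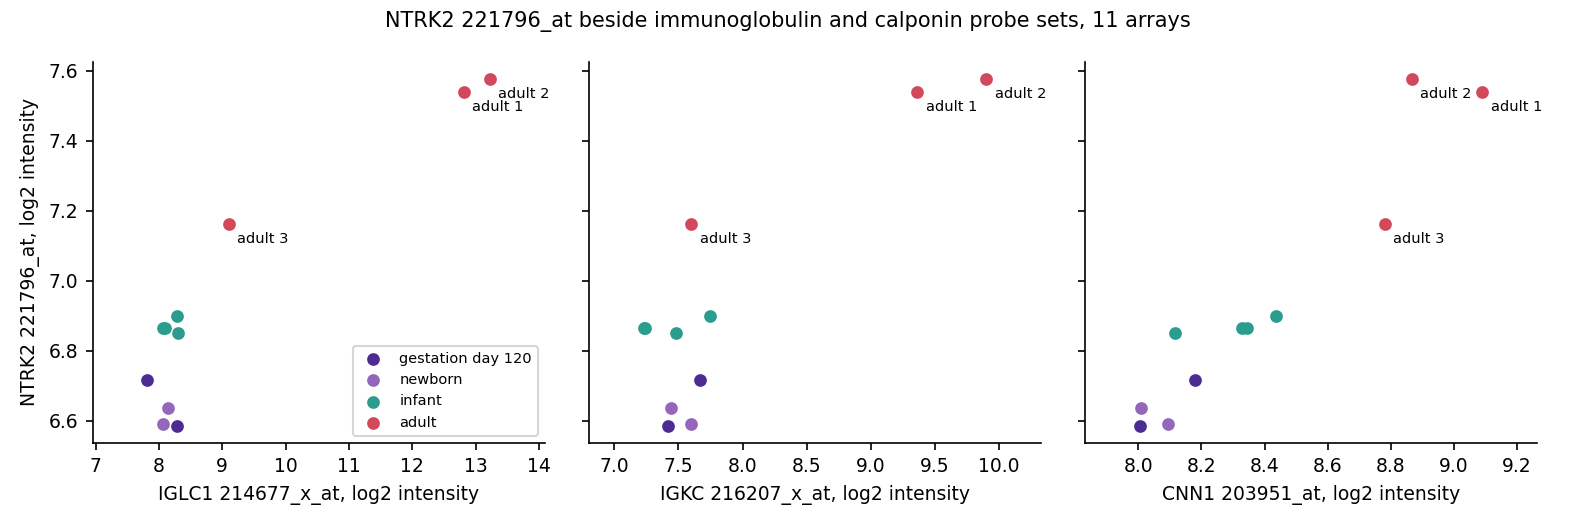
Log2 intensity of NTRK2 221796_at (vertical) against that of IGLC1, IGKC and CNN1 (horizontal, 1 panel each) on the 11 arrays, coloured by stage. Adult arrays 1 and 2 stand apart in IGLC1, at 12.82 and 13.23, and adult array 3 lies at 9.10, while CNN1 reads between 8.78 and 9.09 in all adult arrays.

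NTRK3, the TrkC receptor, differed little between the ages on its 7 probe sets. The brightest, 217377_x_at, averaged 7.98 ± 0.03 (SD, n = 4) for fetal arrays, 7.96 ± 0.16 (SD, n = 4) for infants and 7.90 ± 0.23 (SD, n = 3) for adults. Means of 215115_x_at, 206462_s_at, 213960_at and 215311_at lay below the median of all values, at percentiles 46.3, 16.7, 14.4 and 0.979. Without a detection call such levels cannot be told from background, where a change of the transcript could go unseen. The fetal-to-adult differences of the 7 ran from -0.21 to 0.12 on the log2 scale, with 4 above 0. Those between infant and adult arrays ran from -0.19 to 0.12, and none passed (smallest limma adjusted p = 0.822). Those between fetal and infant arrays ran from -0.18 to 0.21 (smallest limma adjusted p = 0.761). The 95% intervals of the 7 differences reached from -0.42 to 0.45 between infants and adults and from -0.45 to 0.45 between fetal and infant arrays, so that smaller changes could not be seen with these arrays. In 215025_at fetal values lay below adult values, at 7.20, 7.49, 7.65 and 7.65 against 7.67, 7.66 and 7.78. These groups differ there by hundredths between the nearest arrays, and infant array 3, at 7.94, was higher than all of them. Probe sets that end in _x_at may also bind transcripts of other genes, by the naming of the array design. This holds for those of NTRK3 with that ending and for those given above for IGLC1, IGKC and IGHM.

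NGFR, the p75 receptor and CD271 antigen, overlapped between fetal, infant and adult arrays. The newborn arrays lay above those of gestation day 120 by a difference of 0.06 (SE 0.15, limma adjusted p = 1). Its probe set 205858_at read 7.05, 7.03, 7.13 and 7.06 in fetal, 7.13, 6.83, 7.13 and 7.27 in infant and 6.97, 7.17 and 7.16 in adult arrays. The lowest and the highest of the 11 were both infant arrays. Group means were 7.07 ± 0.04 (SD, n = 4), 7.09 ± 0.18 (SD, n = 4) and 7.10 ± 0.11 (SD, n = 3). The infant-to-adult difference was -0.01 with a 95% interval of -0.25 to 0.22, and the fetal-to-infant difference was -0.02 with one of -0.24 to 0.20. The mean of this probe set stood at percentile 27.1 of all probe sets, below their median, and its level cannot be told from background without a detection call.

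BDNF, the ligand of TrkB, went the other way from its receptor's probe set 221796_at, with higher values in fetal than in adult arrays. Its probe set 206382_s_at read 7.82 and 8.04 at gestation day 120 and 7.76 and 8.19 in newborns. Infant arrays 1 to 4 read 7.48, 7.53, 8.09 and 8.33, and adult arrays 7.17, 7.35 and 7.50. All fetal arrays lay above all adult arrays, and the infant arrays spanned both, with arrays 1 and 2 beside adult array 3 and arrays 3 and 4 inside or above the fetal range. Means were 7.95 ± 0.20 (SD, n = 4), 7.86 ± 0.42 (SD, n = 4) and 7.34 ± 0.16 (SD, n = 3), with a fetal-to-adult difference of 0.61 (SE 0.19), or 1.52-fold. The order of the stage means was newborn, gestation day 120, infant and adult, and the first 3 overlapped. Infants and adults differed by 0.51 (SE 0.19, limma adjusted p = 0.705), and fetal and infant arrays by 0.09 (SE 0.18, limma adjusted p = 0.951), and neither passed.

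The division of BDNF among the infant arrays ran with the largest component of variance over all probe sets. On this first principal component, with 23.1% of the variance, the first infant pair scored -19.6 and -16.1, close to adult arrays 1 and 2 with -18.7 and -20.5, whereas infant arrays 3 and 4 scored 9.51 and 10.1, within the fetal range of 6.70 to 11.9. Adult array 3 lay at 19.5 on it but had a BDNF value of 7.50, below the fetal arrays. Infant arrays 1 and 2 were also the older ones, at 6 months each against 3 and 5. What this component stands for was not tested.

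**Figure D3:**
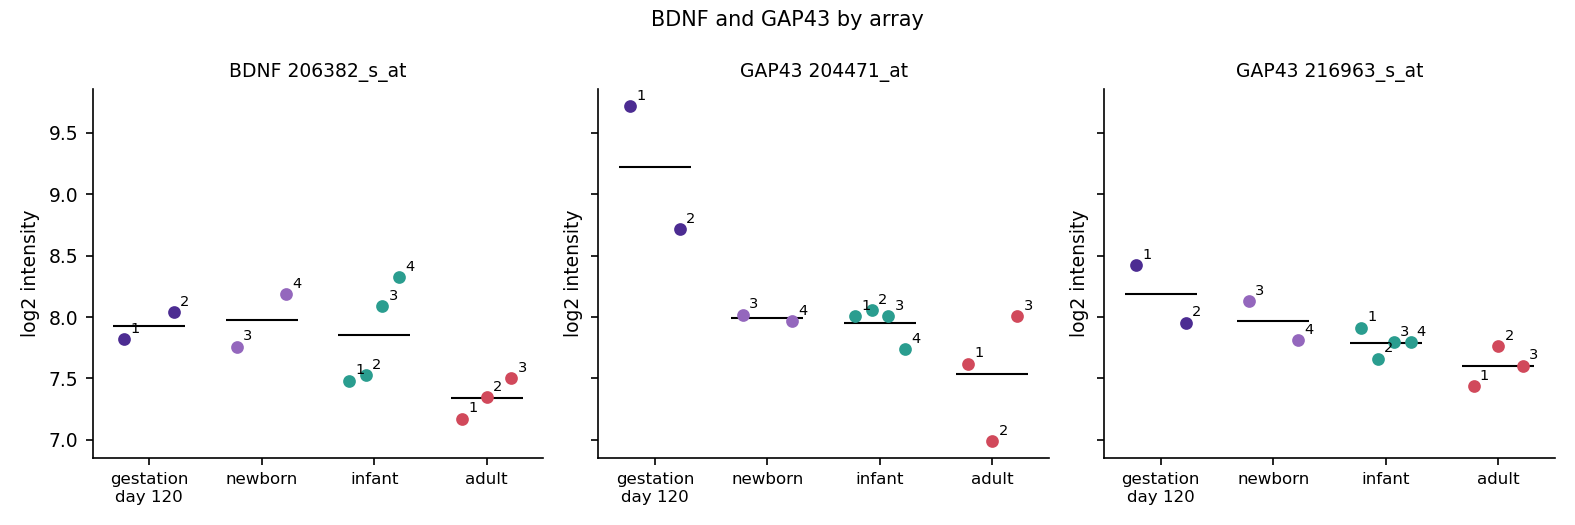
Log2 intensity of the BDNF probe set and of the 2 brighter GAP43 probe sets (panels, shared vertical axis) by stage, with 1 point per array numbered as in its title and a black line at the stage mean. BDNF has its lowest mean in the adult arrays, at 7.17 to 7.50, with infant array 1 at 7.48 among them, and GAP43 204471_at is highest in the arrays of gestation day 120, at 9.72 and 8.72.

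GAP43 had the widest range of all members, in its probe set 204471_at, whose highest values came from the cultures of gestation day 120. Probe set 204471_at read 9.72 and 8.72 at gestation day 120 and 8.02 and 7.97 in newborns. Infant arrays read 8.01, 8.06, 8.01 and 7.74, and adult arrays 7.62, 6.99 and 8.01. Both arrays of gestation day 120 lay above every other array, and newborn, infant and adult arrays overlapped. Fetal arrays averaged 8.61 ± 0.82 (SD, n = 4), infants 7.95 ± 0.14 (SD, n = 4) and adults 7.54 ± 0.51 (SD, n = 3). The fetal-to-adult difference was 1.07 (SE 0.34), 0.70 without fetal array 1, 0.60 without adult arrays 1 and 2 and 1.68 where gestation day 120 alone stood for the fetal group. Newborns differed from gestation day 120 by -1.22 (SE 0.31), which makes the earlier level 2.33-fold the later one. This did not pass over all probe sets in limma with 2 arrays a stage (adjusted p = 1, unadjusted p = 0.00179), and without fetal array 1 the difference was -0.72. Infants differed from adults by 0.41 (SE 0.34, limma adjusted p = 0.885), by 0.14 without adult array 2, by 0.65 without adult array 3 and by -0.05 without adult arrays 1 and 2, and the fetal-to-infant difference was 0.65 (SE 0.31, limma adjusted p = 0.725). That last difference was 0.28 without fetal array 1 and 1.26 where gestation day 120 alone stood for the fetal group.

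The other GAP43 probe sets moved less. Probe set 216963_s_at read 8.42 and 7.95 at gestation day 120, 8.13 and 7.81 in newborns, 7.91, 7.66, 7.79 and 7.80 in infants and 7.44, 7.76 and 7.60 in adults. Fetal array 1 was again the highest, and all fetal arrays lay above all adult arrays, with a difference of 0.48 (SE 0.14), or 1.39-fold. Its fetal and infant arrays overlapped and differed by 0.29 (SE 0.13, limma adjusted p = 0.708), and by 0.17 without fetal array 1. Probe set 216967_at stayed between 6.72 and 7.10 on all arrays, at percentile 11.6 of mean level, and its fetal-to-adult difference was -0.05 (SE 0.11).

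Over all probe sets limma called 29 of 22215 between fetal and adult arrays, 0.131%, and 1 of the 16 members, NTRK2 221796_at, was among them. At an unadjusted p under 0.05 were 5 members and 8.96% of all probe sets. For 5 of 16 members the fetal and adult ranges were apart, against 8.08% of all probe sets, and these 5 were 2 of NTRK2, 1 of NTRK3, BDNF and 1 of GAP43. Since this comparison chose the members, nothing is read from these counts. The comparisons with infants share its adult or its fetal arrays, so their counts are not independent of that choice. Between infants and adults 0 of 16 passed, with 3 at an unadjusted p under 0.05, against 0.018% passing and 6.19% at that unadjusted p of all probe sets. With the replicate block, which pairs arrays of the same number, 9 probe sets passed between infants and adults in place of 4, and 0 of them were members. Infant and adult arrays did not overlap for 1 of 16 members, against 4.98%. Between fetal and infant arrays limma called 0 of 16, with 2 at an unadjusted p under 0.05, against 0 of all probe sets called and 6.87% at that p, and 1 of 16 did not overlap, against 3.34%. Between newborns and gestation day 120 limma called 0 of 16 and 0 of all, with 1 of 16 and 1.81% of all at an unadjusted p under 0.05, and 5 of 16 did not overlap, against 28.8%. The F test over the age groups called 0.036% of all probe sets, with NTRK2 221796_at among them, and since it uses the same fetal and adult values nothing is read from that either. The median fetal-to-adult difference was -0.01 over the 16 members and -0.01 over all probe sets, with 8 members higher and 8 lower.

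**Figure D4:**
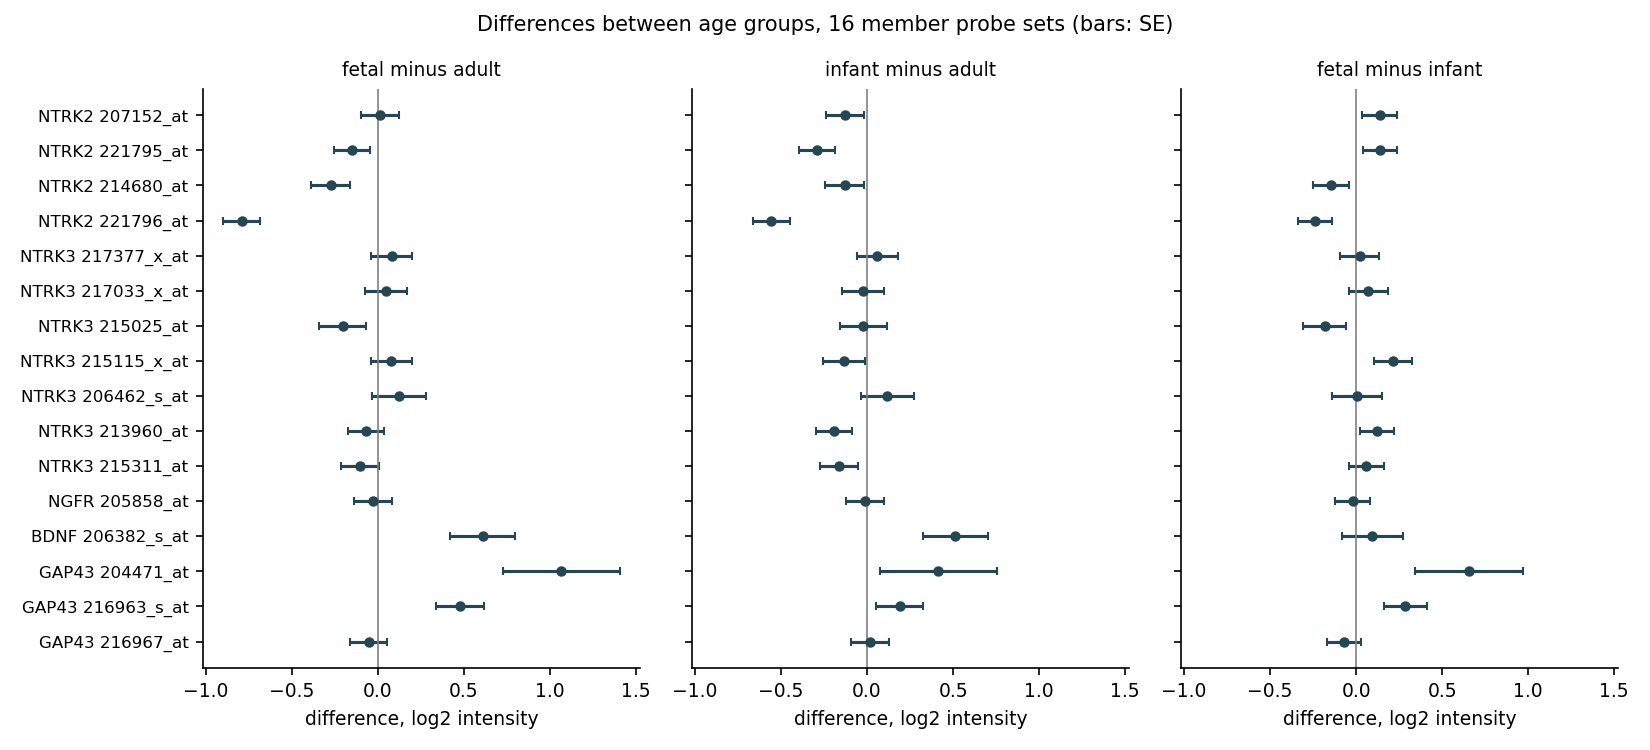
Differences in mean log2 intensity (horizontal, with SE as bars) of the 16 probe sets between fetal and adult, infant and adult, and fetal and infant arrays (panels). NTRK2 221796_at stands lowest in the first panel at -0.79 and GAP43 204471_at highest at 1.07, while the 7 NTRK3 probe sets lie between -0.21 and 0.12.

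Other genes of neurotrophin signalling were taken from 7 lists with 139 genes, of which 114 were measured. None of their probe sets passed in limma in any of the 4 comparisons. With the brightest probe set of each gene, 15 of the 114 had an unadjusted p under 0.05 between fetal and adult arrays, against 9.92% of 11963 genes, 11 between infants and adults, against 6.58%, and 15 between fetal and infant arrays, against 7.6%. Between newborns and gestation day 120 it was 1 gene, against 2.07%. The genes of smallest p are given in the following, each with its probe set of smallest p. That was not always the brightest one, which the list counts and medians use.

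Among the upstream genes, the sorting receptor SORL1 differed between infants and adults by -0.21 (limma adjusted p = 0.824), and its relative SORCS3 between fetal and adult arrays by -0.19 (limma adjusted p = 0.669). These were the 2 genes measured of 7 other ligands and receptors, and both were lower in fetal than in adult means. All 9 proteases that cleave proneurotrophins were measured. PCSK6, a proprotein convertase, was higher in fetal than in adult arrays by 0.31 in 1 probe set (limma adjusted p = 0.437). Its brightest probe set differed by 0.18 (limma adjusted p = 0.806). PCSK5, another convertase, differed by -0.31 between infants and adults (limma adjusted p = 0.767), and the gelatinase MMP9 was higher in fetal than in infant arrays by 0.53 (limma adjusted p = 0.718). The median fetal-to-adult difference of the 9 was 0.10.

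Of the adaptors and effectors of TRK receptors 36 of 47 were measured, with a median fetal-to-adult difference of 0.04 and 23 higher and 13 lower. SOS2, an exchange factor that activates RAS, differed by -0.41 between fetal and adult arrays in 1 probe set (limma adjusted p = 0.259). Its brightest probe set differed by -0.15 (limma adjusted p = 0.773). The kinase AKT2 differed by -0.33 between infants and adults in a probe set other than its brightest (limma adjusted p = 0.692). The adaptor SH2B2 was 0.33 higher in fetal than in infant arrays (limma adjusted p = 0.634). Of the adaptors and effectors of p75 23 of 27 were measured, with a median of 0.01. RIPK2, a kinase that can bind p75, read 8.69, 8.65, 8.63 and 8.63 in fetal, 8.43, 8.54, 8.54 and 8.54 in infant and 8.46, 8.26 and 8.10 in adult arrays. Its fetal arrays lay above all others, with a fetal-to-adult difference of 0.38 (SE 0.10, limma adjusted p = 0.195) and an infant-to-adult difference of 0.24 (limma adjusted p = 0.767). MAGED1, which binds the inner part of p75, was 0.36 higher in fetal than in infant arrays (limma adjusted p = 0.615).

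Genes that neurotrophins induce in neurons, which many other growth signals also induce, were measured in 16 of 17 cases. The median difference was 0.14 between fetal and adult and 0.19 between infant and adult arrays, against medians of -0.0003 and -0.02 over all genes, with 11 and 13 of 16 above 0. The MAP kinase phosphatase DUSP6 read 9.03, 8.60, 8.36 and 8.57 in fetal, 7.63, 8.20, 8.70 and 8.81 in infant and 7.23, 8.24 and 7.50 in adult arrays. All fetal arrays lay above all adult arrays, with a difference of 0.98 (SE 0.28, limma adjusted p = 0.241), and infant arrays 3 and 4 lay above infant arrays 1 and 2, as for BDNF. The transcription factor FOS differed by -1.84 between fetal and infant arrays (limma adjusted p = 0.197), and the survival gene BCL2 was 0.32 higher in infants than in adults (limma adjusted p = 0.638).

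Growth cone proteins other than GAP43 were measured in 17 of 18 cases, with 13 higher in fetal than in adult means and a median difference of 0.05. At an unadjusted p under 0.05 were 5 of them, against 9.92% of all genes. That count was 5 of 23 for p75 adaptors and effectors and 2 of 16 for neurotrophin-induced genes. It was 1 each for proteases, TRK adaptors and effectors, and the GDNF and CNTF families, and 0 for other ligands and receptors. DPYSL3, a cytoskeletal protein of growth cones, came closest to passing. The values given are those of its probe set of smallest p, which was not its brightest. That probe set read 9.14, 8.88, 8.85 and 8.11 in fetal, 8.43, 8.53, 8.31 and 7.82 in infant and 7.74, 7.42 and 7.81 in adult arrays. All fetal and infant arrays lay above all adult arrays, and the fetal-to-adult difference was 1.09 (SE 0.22, limma adjusted p = 0.0697). The actin-binding protein drebrin, DBN1, was 0.53 higher in fetal than in infant arrays (limma adjusted p = 0.432), and the adhesion molecule L1CAM differed by -0.35 between infants and adults (limma adjusted p = 0.465).

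Among 12 measured genes of the GDNF and CNTF families, other neurotrophic factors and their receptors, the median fetal-to-adult difference was 0.04 with 8 above 0. The CNTF receptor CNTFR differed by -0.27 between fetal and adult arrays (limma adjusted p = 0.425), its signalling partner IL6ST by -0.27 between infants and adults (limma adjusted p = 0.770), and the GDNF receptor GFRA1 by -0.29 between fetal and infant arrays (limma adjusted p = 0.697).

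**Figure D5:**
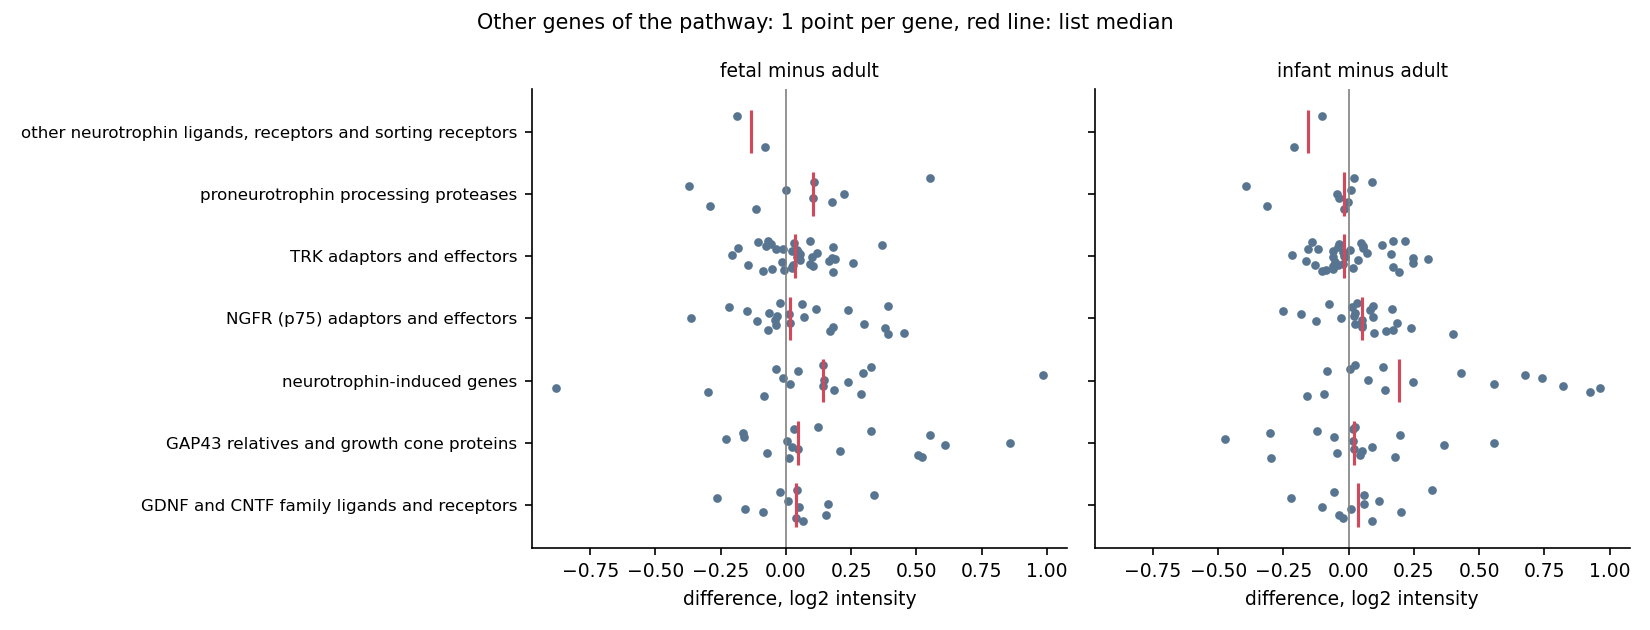
Differences in mean log2 intensity (horizontal) between fetal and adult and between infant and adult arrays (panels), with 1 point for each measured gene of the 7 lists (rows, brightest probe set of the gene) and a red line at the list median. The list medians lie between -0.13 and 0.14 in the first panel and between -0.16 and 0.19 in the second.

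Genes with the pattern most like a member were sought over the 11 arrays by Pearson correlation of log2 values, and the r values are a description of the most similar of all probe sets, with no p. For the brightest NTRK2 probe set, 207152_at, these were HTR1D, a serotonin receptor (r = 0.927, Spearman 0.944), the centriole protein gene CNTRL (0.917) and CALCA, the calcitonin gene (0.911). Their values varied as little as its own, from 6.68 to 7.67 among the 3, and without infant array 2 and fetal array 1 the values of r were 0.910, 0.705 and 0.798. For GAP43 204471_at the closest were OLFML2B, an olfactomedin-like secreted protein (r = 0.915), PTGES, a prostaglandin E synthase (0.913), and CRABP2, which binds retinoic acid (0.904). All 3 were highest in fetal array 1, and without it and adult array 2 the values of r were 0.795, 0.520 and 0.598. For NTRK2 221796_at, which was added after its values were seen, the closest were CNN1 (r = 0.957), IGHM (0.949) and the membrane skeleton gene EPB41L3 (0.929). The probe set of IGHM, an immunoglobulin heavy chain gene, was the one that passed between fetal and adult arrays, not its brighter one. Without adult arrays 1 and 2 the values of r were 0.936, 0.857 and 0.754. For BDNF, also added afterwards, they were the phospholipase gene PLCH2 (r = 0.909), the angiogenic factor VEGFA (0.902) and the ligand WNT5A (0.902), and without adult array 1 and infant array 4 they were 0.875, 0.847 and 0.937.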

How the data were processed

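Values were intensities per probe set on a linear scale, made by the authors with RMA (version not given), per the submitters' processing notes, and the log2 of each deposited intensity was taken first. The method includes background correction, normalization between arrays and a summary over probes, so differences in total brightness between arrays were removed before deposit. Probe-level signals were not used here, and the number of arrays limits the precision. Of 22215 probe sets 19065 had 1 gene symbol, 1043 several and 2107 none, and genes were named from those with 1. No sequence was given for the probe sets.

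With limma 3.58.1 (R 4.3.3) a mean was fitted to each group (or to each stage, for newborn against gestation day 120) over all 11 arrays with empirical Bayes moderation. Tests were two-sided, with Benjamini-Hochberg adjusted p over all probe sets and a threshold of 0.05, and the fit was tested on simulated data. The F test over the 3 groups called 8 probe sets, 1 of them NTRK2 221796_at. The members, the 14 lists (218 entries, 183 measured) and the alternatives were chosen with earlier results of these data known. Named genes were every member probe set, the probe sets of smallest p of each signalling list where none was called, at most 4 called ones per list, and the 3 genes most like the brightest NTRK2 and GAP43 probe sets. Marker genes named beside a result, and the genes most like NTRK2 221796_at and BDNF, were chosen after their values were seen.

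Replicate numbers are shared between titles. For same-numbered infant and adult arrays, the correlations of deviations from the group means were 0.145, 0.131 and 0.204 over probe sets. Each was over 0.1, the criterion set for pairs. Arrays of different numbers were not compared, so these values cannot show that same-numbered arrays are pairs. The correlations of fetal and adult arrays were 0.0683, 0.0427 and -0.0965, and those of fetal and infant arrays 0.116, 0.00773, 0.0410 and 0.275. Whether a shared number marks a pair in any of the groups was not tested.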

Additional observations from a re-analysis of the deposited data

Results flagged for a closer look

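In 32 groups of 4 arrays a member probe set was searched for an array standing apart. In 5 of them the gap to the nearest other array exceeded the 95% critical value of Dixon's test. The nominal rate of 1 in 20 groups assumes values without ties from a single population. Values here were often shared, and the fetal groups held 2 stages. The share over all probe sets was not computed, so the count is not read as a result about the members. In NTRK2 207152_at infant array 2 read 7.36 and the other 3 infant arrays shared 1 value of 7.62 (ratio of gap to range 1). In NTRK2 214680_at fetal array 1 read 6.61 and the others 7.02 (0.997). In NTRK3 213960_at fetal array 3 read 6.96 and the others 6.95 (0.903), a gap of about a hundredth. In GAP43 204471_at infant array 4 read 7.74 and the others 8.01 to 8.06 (0.840), and in GAP43 216967_at infant array 3 read 7.09 and the others 6.84 to 6.88 (0.836). In the first 3 of these groups the other arrays shared or nearly shared a value, and in the fourth infant arrays 1 and 3 shared 1.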

How the results depend on the processing

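The number of probe sets called depended on the fit. The comparison of fetal and adult arrays chose the members, so its calls of members are listed only to show their dependence on the fit and are no test. Between fetal and adult arrays 29 were called, 14 higher and 15 lower, and 38 (22 and 16) with each array median-centred, 27 (10 and 17) with quantile normalization repeated, 120 with array weights, 47 with a variance trend, 16 with only the arrays compared, 44 without adult arrays 1 and 2, 221 with the replicate block, 15 with a pseudocount of 32 and 4 to 153 without 1 array each (4 when adult array 1, adult array 2 or fetal array 2 was dropped, 7 for fetal array 1, 9 for fetal array 3, 153 for adult array 3 and 120 for fetal array 4). NTRK2 221796_at kept its direction in every one of these fits that held it, from -0.92 without adult array 3 to -0.53 without adult arrays 1 and 2, as it had to, since the arrays did not overlap. It lost the call in 7 of them, namely with only the arrays compared, with gestation day 120 alone as fetal, without adult arrays 1 and 2, and on dropping any of adult array 1, adult array 2, fetal array 2 and fetal array 3. A filter at the median level removed it. With gestation day 120 alone as fetal, GAP43 204471_at was the member called. Between infants and adults 4 were called, 10 with array weights, 2 with only the arrays compared, 44 without adult arrays 1 and 2, 9 with the replicate block, and 0 to 55 without 1 array each (0 without adult array 1 or infant array 3, 55 without adult array 3). Between fetal and infant arrays 0 were called, 1 with the filter on dim probe sets, 1 with array weights, 2 with the replicate block and 0 to 21 without 1 array each (4 without infant array 3 and 21 without fetal array 4). The count lay between 0 and 2 for newborns against gestation day 120 (2 without fetal array 3) and, for the F test, whose alternatives were added after seeing the data, between 2 and 95 around a count of 8 (2 without adult array 1, 95 without adult array 3). The replicate block changed the call of no member. Some differences that did not pass changed sign. NGFR between infants and adults stood at 0.0024 with arrays median-centred, 0.017 with array weights and -0.077 to 0.074 without 1 array each, and between fetal and infant arrays at -0.11 to 0.040. The highest NTRK3 difference between infants and adults was -0.057 and that of GAP43 204471_at, 0.41 over all arrays, was -0.054 without adult arrays 1 and 2. Without 1 array each BDNF ranged from -0.030 to 0.25 between fetal and infant arrays and from -0.17 to 0.26 between newborns and gestation day 120, where GAP43 216963_s_at ranged from -0.45 to 0.015 around a value of -0.22. The cause of these changes was not tested. By Spearman correlation 3 of the 3 genes most like NTRK2 207152_at and 1 of the 3 most like GAP43 204471_at stayed the closest. For NTRK2 221796_at and for BDNF it was 1 of 3 each.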
